A study of Mus musculus with 5 samples.

Results

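Genes of non-canonical Wnt signalling and planar cell polarity were followed through 5 mouse embryonic tissues, as the 10 loci whose name in the expression table was exactly Wnt5a, Wnt5b, Wnt11, Fzd2, Ror2, Vangl2, Celsr1, Celsr2, Prickle1 or Daam2. They were 10 of 12375 named loci, and all 10 were found once each. The tissues came from C57BL/6J embryos with no transgene or treatment named in the labels. They were ventral pancreas, dorsal pancreas and liver of embryonic stage E10.5, and medial foregut and foregut of stage E8.5. Each tissue is 1 poly(A) RNA library, so no difference can be set against the spread between replicates, no test was run, and every difference below describes these libraries. The number of embryos per library and the way the tissue was cut out were not stated in the labels. The study's title asks what separates a pancreas from a liver fate, which is the first comparison below.

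Wnt proteins are secreted signals. In the canonical branch they stabilise beta-catenin, whereas in the non-canonical branches they act through Frizzled receptors and the Ror kinases on the cytoskeleton, on Jun kinases or on calcium. Planar cell polarity is the alignment of cells within the plane of a sheet. It rests on a core set of membrane and cytoplasmic proteins, among them the Vangl, Celsr and Prickle families, which sort to opposite sides of each cell. In vertebrate embryos these genes are known for convergent extension, the narrowing and lengthening of tissue, and for the closure of the neural tube.

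The members lay on 9 chromosomes, at the following positions of the mm9 build as the table gives them. The ligand genes were Wnt5a (chromosome 14, 29317743 to 29340635, plus strand), Wnt5b (chromosome 6, 119374440 to 119494729, minus strand) and Wnt11 (chromosome 7, 106002365 to 106003700, plus strand). The receptor genes were Fzd2 (chromosome 11, 102462882 to 102470261, plus strand) and Ror2 (chromosome 13, 53204666 to 53381793, minus strand). The core polarity genes were Vangl2 (chromosome 1, 173931088 to 173957444), Celsr1 (chromosome 15, 85709753 to 85864645), Celsr2 (chromosome 3, 108193674 to 108218969) and Prickle1 (chromosome 15, 93329542 to 93426503), all on the minus strand. The effector gene was Daam2 (chromosome 17, 49567702 to 49703952, minus strand). The Wnt11 locus covered 6.65% of the annotated span of its gene, so its level is that of a part of the gene. Other loci ran past their gene, with 201% of the annotated span for Fzd2, 126% for Daam2 and 115% for Celsr1. Wnt5b shares its whole interval with Fbxl14, and Daam2 shares its own with Mocs1, in both cases on the opposite strand. The library protocol names no strand marking, so reads of such a pair cannot be told apart by strand. How far the exons of each pair overlap was not examined. The partner genes varied less than the members did. Fbxl14 stood at 12.5 FPKM in ventral pancreas, 14.1 in dorsal pancreas, 9.43 in liver, 14.8 in medial foregut and 14.0 in foregut. Mocs1 stood at 2.77 FPKM in ventral pancreas, 3.82 in dorsal pancreas, 2.90 in liver, 2.38 in medial foregut and 2.24 in foregut.

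RefSeq promoter sequences (GRCm38.p6) were at hand for 7 of the 10 members and held 12 start sites. The 250 bases before the start are shown for Ror2 and Celsr2, which were higher together in both pancreatic libraries than in liver, and for the more upstream start of Daam2, which was high in dorsal pancreas alone. Each is printed from 5′ to 3′ on the strand of the gene, with capitals marking the GC box GGGCGG on either strand.
Ror2 (chr13:53286125-53286374, minus strand): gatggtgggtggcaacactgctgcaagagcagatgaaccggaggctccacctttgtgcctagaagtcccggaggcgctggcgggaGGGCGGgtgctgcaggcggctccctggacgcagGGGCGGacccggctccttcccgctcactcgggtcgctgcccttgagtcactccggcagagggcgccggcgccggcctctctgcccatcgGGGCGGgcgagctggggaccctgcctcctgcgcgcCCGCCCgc
Celsr2 (chr3:108415580-108415829, minus strand): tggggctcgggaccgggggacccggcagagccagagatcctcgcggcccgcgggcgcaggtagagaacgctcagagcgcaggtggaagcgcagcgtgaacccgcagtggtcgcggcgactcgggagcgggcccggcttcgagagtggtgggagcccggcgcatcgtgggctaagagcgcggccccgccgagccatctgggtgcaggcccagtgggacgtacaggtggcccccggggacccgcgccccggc
Daam2 (chr17:49564338-49564587, minus strand): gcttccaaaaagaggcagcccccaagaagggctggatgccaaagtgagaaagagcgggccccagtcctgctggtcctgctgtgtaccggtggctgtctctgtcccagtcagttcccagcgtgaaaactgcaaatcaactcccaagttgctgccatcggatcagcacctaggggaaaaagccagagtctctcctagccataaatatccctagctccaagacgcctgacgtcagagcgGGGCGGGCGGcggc

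The share of G and C was 73.2% in Ror2, 75.2% in Celsr2 and 58.4% in the Daam2 window shown, against a median of 52.4% over 32851 promoters. The 3 Wnt5b windows, from the most upstream on, had 75.2%, 53.2% and 55.6%. The 2 Wnt11 windows had 70.8% and 56.8%, so some windows lay close to the median. A GC box stood before at least 1 start of 6 of the 7 genes, and in 32.7% of all promoters. By window it was 9 of 12, in which the overlapping Daam2 windows count the same boxes again. The Ror2 window held 4 of them and the Celsr2 window none. The TATA box TATAAA was found in 1 member window (12.4% of all promoters), CCAAT in 1 (33.8%) and the LEF1/TCF core CTTTGA in 2 (13.8%), each searched on both strands. These are matches of letters and not shown to be sites in use.

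The deposited values are FPKM, in which fragments are counted relative to transcript length and to the size of the library, so that levels of different genes can be set side by side. Depth in reads is unknown. The FPKM of all loci summed to between 437581 and 506529 per library, and between 10266 and 11165 named loci reached 1 FPKM. The E10.5 libraries bore the markers of their labels: all 8 pancreatic progenitor markers reached 1 FPKM in both pancreatic libraries and 1 of 8, Sox9, did in liver, while the 9 hepatoblast markers found summed to 582 FPKM in ventral pancreas, 76.0 in dorsal pancreas and 5443 in liver. The E8.5 libraries held much besides gut epithelium. The 10 cardiomyocyte markers found summed to 9295 FPKM in medial foregut and 5387 in foregut, and 7 neural tube markers to 58.7 in medial foregut and 137.6 in foregut. In libraries of mixed cells such as these, fewer cells of a type and less RNA per cell cannot be told apart.

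Differences below are in log2(FPKM + 1), a scale on which genes with low levels differ less than their FPKM ratio would give. The 4-fold count takes genes that differ by 2 or more on this scale and reach 5 FPKM in the higher library. The 2-fold count takes those that differ by 1 or more, with the same minimum. Where 2 libraries stood on one side of a comparison, both had to pass in the same direction.

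**Figure D1:**
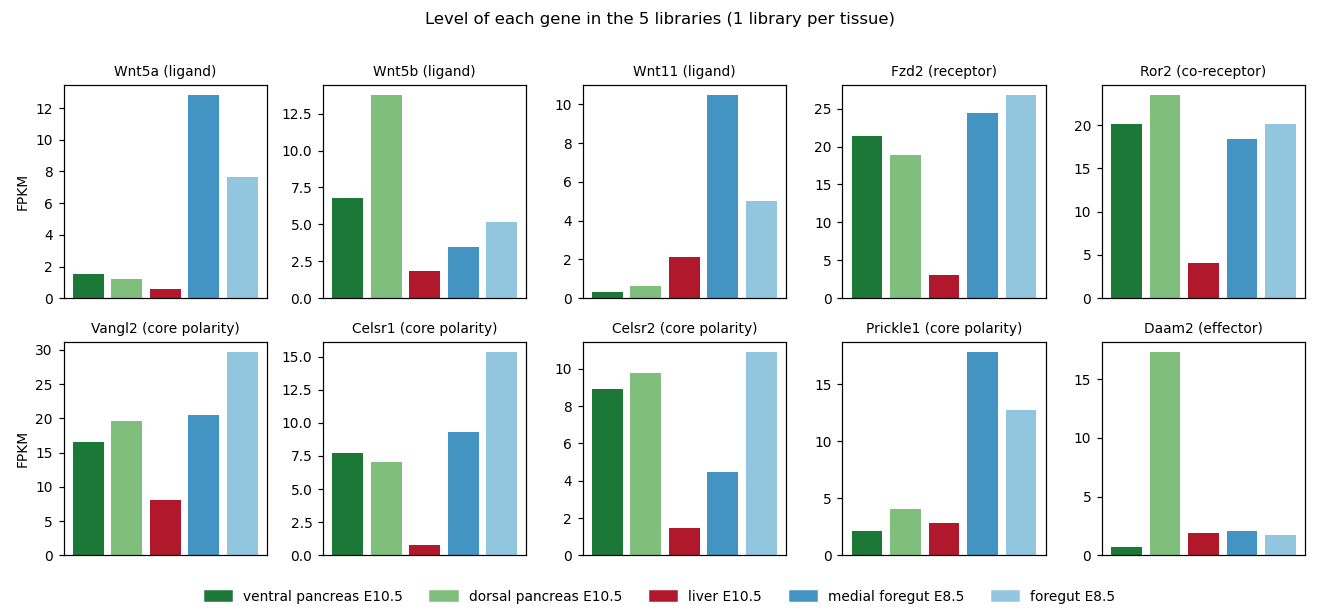
Bars give the FPKM of each of the 10 genes in each library (1 library per tissue, no error bar possible); each panel has its own axis from 0. Fzd2, Ror2, Vangl2, Celsr1 and Celsr2 are lowest in liver, Wnt5a, Wnt11 and Prickle1 are highest in medial foregut, and Daam2 is highest in dorsal pancreas at 17.3 FPKM.

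The receptor genes and the Celsr genes separated both pancreatic libraries from liver. Fzd2, Ror2, Celsr1 and Celsr2, 4 members in all, were higher in both pancreatic libraries by the 4-fold count and 0 were lower, where 1.51% of all named loci were higher and 1.04% lower. Over all loci that is 187 higher and 129 lower, a balance that shifted with scaling, to 136 higher and 154 lower after median-ratio rescaling and to 348 higher and 144 lower after rescaling to equal sums. The equal sum of 1000000 lay above that of every library, so all levels rose while the added 1 and the 5 FPKM minimum stayed fixed. With the 2-fold count 5 members were higher (Wnt5b in addition) against 5.36% of all loci, and again 0 lower, against 3.11%. The median difference of the 10 members was 1.21 for ventral pancreas minus liver and 2.17 for dorsal pancreas minus liver, beside 0.17 and 0.16 over all named loci. Summed over the 10 genes, the level was 86.3 FPKM in ventral pancreas and 115.9 in dorsal pancreas, against 26.7 in liver. Of the 10 genes, 6 reached 5 FPKM in ventral pancreas, 7 in dorsal pancreas, 1 in liver, 7 in medial foregut and 9 in foregut. Of 12375 named loci, 8400 reached it in ventral pancreas, 8276 in dorsal pancreas, 7571 in liver, 7866 in medial foregut and 7917 in foregut.

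Fzd2, a Frizzled receptor that binds Wnt5a in mouse and human cells, stood at 21.4 FPKM in ventral pancreas, 18.9 in dorsal pancreas, 3.04 in liver, 24.4 in medial foregut and 26.8 in foregut. Liver was the low library and the other 4 lay between 18.9 and 26.8 FPKM. The difference from liver was 2.47 for ventral and 2.30 for dorsal pancreas. Ror2, the receptor tyrosine kinase that serves as a co-receptor for Wnt5a, had 20.1 FPKM in ventral pancreas, 23.5 in dorsal pancreas, 4.06 in liver, 18.4 in medial foregut and 20.2 in foregut. It had the same outline, with liver set apart by 2.06 from ventral and 2.27 from dorsal pancreas.

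Celsr1 and Celsr2 encode atypical cadherins that hold the polarity complexes of neighbouring cells together. Celsr1 stood at 7.74 FPKM in ventral pancreas, 7.03 in dorsal pancreas, 0.749 in liver, 9.31 in medial foregut and 15.3 in foregut. Celsr2 stood at 8.94 FPKM in ventral pancreas, 9.77 in dorsal pancreas, 1.46 in liver, 4.48 in medial foregut and 10.9 in foregut. Liver was lowest for both, and the 2 pancreatic libraries were close to each other, with differences of 0.12 for Celsr1 and -0.12 for Celsr2 (ventral minus dorsal). The differences from liver were 2.32 and 2.20 for Celsr1 and 2.02 and 2.13 for Celsr2, for ventral and dorsal pancreas in turn. Celsr1 was below Celsr2 in the E10.5 libraries, at 0.866 times its level in ventral pancreas, 0.720 times in dorsal pancreas and 0.514 times in liver. It was above Celsr2 at E8.5, at 2.08 times in medial foregut and 1.41 times in foregut.

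Celsr2 at 2.02 and Ror2 at 2.06, both for ventral pancreas minus liver, were the members just inside the 4-fold limit. Rescaling the libraries by median ratios left Fzd2 and Celsr1 as 2 members past it, with the liver difference of Ror2 at 1.85 for ventral pancreas and of Celsr2 at 1.84 for ventral and 1.97 for dorsal pancreas. A pseudocount of 5 FPKM in place of 1 left 0 of the 10, with all 4 genes still higher in both pancreatic libraries, by 1.07 to 1.72.

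Vangl2, a membrane protein whose loss leaves the mouse neural tube open, was the nearest outside the 2-fold limit. It stood at 16.6 FPKM in ventral pancreas, 19.7 in dorsal pancreas, 8.08 in liver, 20.5 in medial foregut and 29.7 in foregut, and its difference from liver was 0.95 for ventral and 1.19 for dorsal pancreas. It had the smallest spread of the 10, with 3.67 times between the highest and the lowest library. Liver was again the lowest, and Vangl2 was the only member that reached 5 FPKM there.

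**Figure D2:**
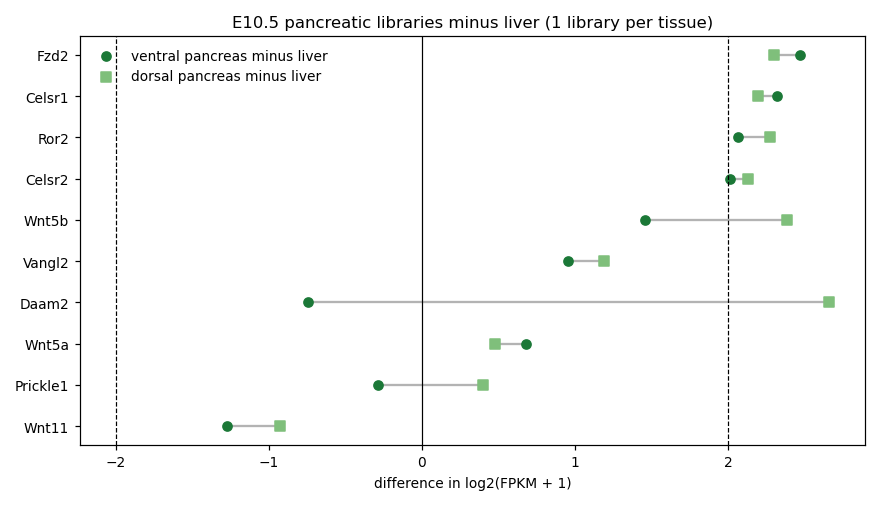
Points give the difference in log2(FPKM + 1) of ventral pancreas minus liver (circles) and dorsal pancreas minus liver (squares) for each gene, with dashed lines at the 4-fold size of 2. Fzd2, Celsr1, Ror2 and Celsr2 lie past 2 for both, and Daam2 lies at -0.74 for ventral and 2.66 for dorsal pancreas.

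The ligands did not share one direction. Wnt5b, a ligand of the non-canonical group, stood at 6.77 FPKM in ventral pancreas, 13.8 in dorsal pancreas, 1.83 in liver, 3.44 in medial foregut and 5.17 in foregut. It was higher than in liver by 1.46 in ventral and 2.38 in dorsal pancreas. Wnt5a, the ligand most studied in this branch, was low in all 3 E10.5 libraries, at 1.53 FPKM in ventral pancreas, 1.20 in dorsal pancreas and 0.582 in liver. Its differences from liver, 0.68 for ventral and 0.48 for dorsal pancreas, had no library at 5 FPKM. Wnt11, which drives convergent extension in fish and frogs, differed the other way, with 0.296 FPKM in ventral pancreas, 0.652 in dorsal pancreas and 2.13 in liver, at the partial locus described above.

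Markers of several cell types differed between the same libraries, and their part in these differences was not tested. All 16 epithelial markers were found. Their summed level was 1858 FPKM in ventral pancreas, 1052 in dorsal pancreas and 537 in liver, and 8 of 16 were higher in both pancreatic libraries by the 4-fold count. Their median difference was 2.94 for ventral and 2.05 for dorsal pancreas. Grhl2 (0.0907 FPKM) and Cldn7 (0.354 FPKM) were the lowest of them in liver. The highest there were Krt18 (183 FPKM), Krt8 (121 FPKM) and Spint2 (102 FPKM). Krt18 and Esrp2 were higher in liver than in dorsal pancreas, where they stood at 101 and 4.69 FPKM. Esrp2 had 7.37 FPKM in liver. In ventral pancreas Krt18 had 239 FPKM and Esrp2 had 8.10. In their sum, cardiomyocyte markers, 10 of 12 found, went the other way, with 28.7 FPKM in ventral pancreas, 22.0 in dorsal pancreas and 492 in liver. Nkx2-5 did not, at 0.0358 FPKM in ventral pancreas, 4.77 in dorsal pancreas and 0.0191 in liver. Myl3 was higher in ventral pancreas (3.01 FPKM) than in liver (0.186 FPKM). Endothelial markers, 9 of 12 found, summed to 58.8 in ventral pancreas, 74.0 in dorsal pancreas and 136 in liver. Among them, Flt1 was higher in ventral pancreas (14.3 FPKM) than in liver (2.86 FPKM). Emcn was higher in dorsal pancreas (11.3 FPKM) than in liver (9.75 FPKM). Leukocyte markers, 5 of 10 found, had sums of 3.97 in ventral pancreas, 6.56 in dorsal pancreas and 87.8 in liver.

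The pancreatic libraries differed from each other in 1 member. Daam2, a formin that links Dishevelled to actin assembly, stood at 0.728 FPKM in ventral pancreas, 17.3 in dorsal pancreas, 1.89 in liver, 2.07 in medial foregut and 1.75 in foregut. Dorsal pancreas stood alone above the other 4 libraries, which lay between 0.728 and 2.07 FPKM. The difference of ventral minus dorsal pancreas was -3.40, and Daam2 was the 1 member counted as lower, where 0.768% of all named loci were. No member, 0 of 10, was higher, against 0.913%. With a pseudocount of 5 FPKM the difference was -1.96, just short of that size. The 2-fold count gave the same 1 and 0, against 2.47% and 3.28% of all loci. Mocs1, on the other strand of the interval, had 2.77 FPKM in ventral pancreas and 3.82 in dorsal pancreas. The other 9 members differed by -0.93 (Wnt5b) to 0.20 (Wnt5a).

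Daam1, the other gene of that family, varied less, with 10.4 FPKM in ventral pancreas, 8.82 in dorsal pancreas, 14.4 in liver, 11.6 in medial foregut and 11.5 in foregut. Daam2 made up 66.2% of the summed Daam level in dorsal pancreas, against 6.54% in ventral pancreas, 11.6% in liver, 15.1% in medial foregut and 13.2% in foregut. The 3 loci with the profile most like that of Daam2 over the 5 libraries, among 9414 loci that reached 5 FPKM, were Igf1, Foxp2 and Bnc1, at Euclidean distances of 0.55, 0.63 and 0.71 between mean-centred log2(FPKM + 1) profiles. Igf1 had 1.13 FPKM in ventral pancreas and 33.0 in the dorsal one, and Foxp2 had 1.85 in ventral and 16.5 in dorsal pancreas.

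Of 14 gut mesenchyme markers found among 16, 10 were lower in ventral pancreas than in the dorsal one, as Daam2 was, and 4 were higher (Postn, Tbx18, Prrx1 and Col1a1). Their summed level was 106 FPKM in ventral and 282 in dorsal pancreas, 4 were lower in ventral pancreas by the 4-fold count (Barx1, Pdgfra, Foxf1a and Nkx3-2) and 1 was higher (Postn). Barx1 makes up much of the difference between the sums. Barx1 had 0.360 FPKM in ventral pancreas and 89.3 in the dorsal one, and Pdgfra had 3.48 in ventral and 35.0 in dorsal pancreas. Nkx3-2 was near 0 in ventral pancreas, at 0.0497 FPKM. The part of these cells in the Daam2 level was not tested.

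Later against earlier stage, the members fell into 3 outlines. Wnt5a, Wnt11 and Prickle1 were highest in the E8.5 libraries and lower in every E10.5 library. Fzd2, Ror2, Vangl2 and Celsr1 stood within -1.02 to 0.33 of their E8.5 levels in the pancreatic libraries and were lower in liver. Wnt5b and Daam2 were higher in dorsal pancreas than at E8.5. Celsr2 differed between the E8.5 libraries themselves. The same E8.5 libraries enter each of these comparisons, so the counts are not independent of each other.

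In liver, 9 of 10 members were lower than in both E8.5 libraries, as were 6284 of 12375 named loci. Daam2 was level, with differences of -0.09 from medial foregut and 0.07 from foregut. By the 4-fold count 3 members were lower (Wnt5a, Fzd2 and Celsr1) and 0 higher, beside 2.12% lower and 2.29% higher over all loci. The 2-fold count added Ror2, Vangl2 and Prickle1, which makes 6, beside 6.08% of all loci, and 0 were higher, beside 5.24%. The differences of those 3 were -2.56 for Celsr1, -2.65 for Fzd2 and -3.13 for Wnt5a against medial foregut, and -3.22 for Celsr1, -2.78 for Fzd2 and -2.45 for Wnt5a against foregut. Against foregut alone the 4-fold count was 5. Summed epithelial markers stood at 537 FPKM in liver, against 1178 in medial foregut and 885 in foregut. Neural tube markers summed to 7.36 FPKM in liver, against 58.7 in medial foregut and 137.6 in foregut, and cardiomyocyte markers to 492 in liver, against 9295 in medial foregut and 5387 in foregut. Their part in these differences was not tested. With a pseudocount of 5 FPKM, 0 members passed the 4-fold count in any of the comparisons between stages.

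In ventral pancreas 2 members, Wnt11 and Prickle1, were lower than in both E8.5 libraries by the 4-fold count and 0 were higher, beside 1.49% and 1.96% of all loci. The 2-fold count added Wnt5a, which makes 3 lower, beside 3.31%, with 0 higher, beside 6.38%. Leaving out Wnt11, whose locus is partial, leaves 1 member in the 4-fold count. In dorsal pancreas 1 member, Daam2, was higher, by 2.58 from medial foregut and 2.74 from foregut, and 0 were lower, beside 1.45% and 1.18% of all loci. There the 2-fold count gave 2 higher (Wnt5b and Daam2, beside 4.36%) and 3 lower (Wnt5a, Wnt11 and Prickle1, beside 2.8%). Against medial foregut alone, Wnt5a and Wnt11 made 2 members lower in dorsal pancreas by the 4-fold count, at -2.65 and -2.80.

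Prickle1, a cytoplasmic LIM-domain protein that binds Vangl proteins, stood at 2.17 FPKM in ventral pancreas, 4.10 in dorsal pancreas, 2.87 in liver, 17.8 in medial foregut and 12.7 in foregut. Both E8.5 libraries were above all 3 E10.5 libraries. Prickle2 and Prickle3, the other measured genes of the family, stayed at or under 3.43 FPKM in every library. The share of Prickle1 in the family was 33.4% in ventral pancreas, 47.9% in dorsal pancreas and 59.4% in liver, against 80.1% in medial foregut and 74.5% in foregut. The loci most like Prickle1 in profile were Usp13, Dok4 and the laminin gene Lama4.

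Wnt5a reached 12.8 FPKM in medial foregut and 7.62 in foregut, and Wnt11 reached 10.47 in medial foregut and 5.03 in foregut, all above their E10.5 levels. The balance of the paired ligands Wnt5b and Wnt5a turned between the stages. Wnt5b stood at 4.41 times Wnt5a in ventral pancreas, 11.4 times in dorsal pancreas and 3.15 times in liver, and at 0.268 times in medial foregut and 0.678 times in foregut. The loci most like Wnt5a in profile were Mpped2, Tdrd12 and Kcng2, and those most like Wnt11 were the integrin gene Itgb3, Klhl30 and Gyg.

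The cardiomyocyte markers were on the same side as Wnt5a, Wnt11 and Prickle1. They summed to 28.7 FPKM in ventral pancreas, 22.0 in dorsal pancreas and 492 in liver, against 9295 in medial foregut and 5387 in foregut. By the 4-fold count all 10 were lower than at E8.5 in ventral pancreas and in liver, and 9 of 10 in dorsal pancreas. Neural tube markers, 7 found, summed to 15.9 in ventral pancreas, 50.4 in dorsal pancreas and 7.36 in liver, against 58.7 in medial foregut and 137.6 in foregut. Of these, 2, 2 and 3 were lower by the 4-fold count in ventral pancreas, dorsal pancreas and liver. Within the dorsal pancreas sum, Pax6 stood at 26.2 FPKM and Nes at 9.59, while Sox1 stood at 0.0754 and Sox2 at 0.464. Endothelial markers, 9 found, summed to 58.8 in ventral pancreas, 74.0 in dorsal pancreas and 136 in liver, against 167 in medial foregut and 133 in foregut, and 4 of 9 were lower in ventral pancreas (Cdh5, Kdr, Tek and Tie1). Flt1 went the other way, with 14.3 FPKM in ventral pancreas against 10.1 in medial foregut and 7.51 in foregut. Egfl7, at 32.2 FPKM, was the largest part of the ventral pancreas sum. The part of these cell types in the levels of the 3 genes was not tested.

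**Figure D3:**
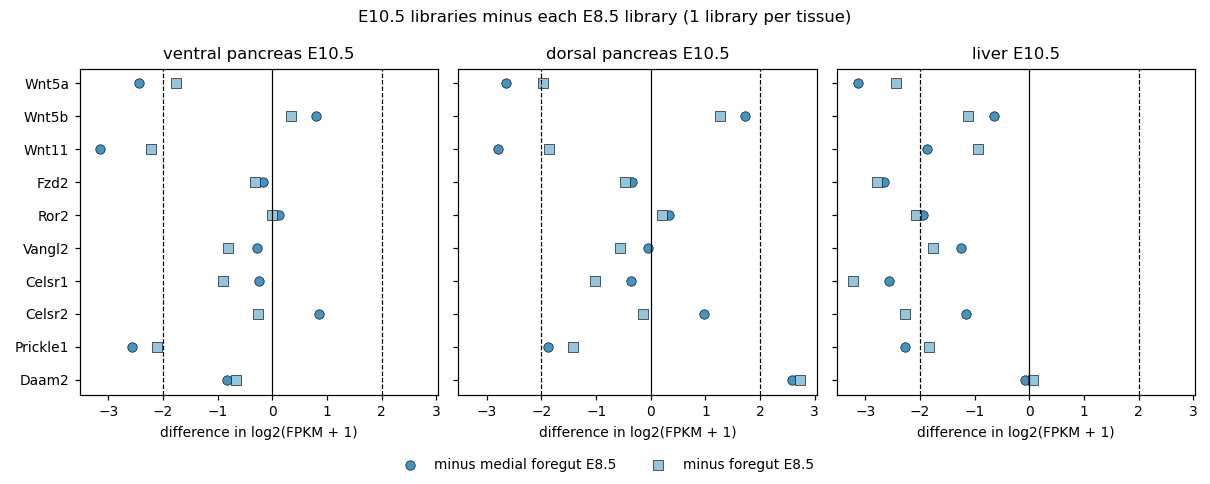
Each panel sets 1 E10.5 library against medial foregut (circles) and foregut (squares) at E8.5, as differences in log2(FPKM + 1), with dashed lines at the 4-fold size. Wnt5a, Wnt11 and Prickle1 lie left of 0 in all 3 panels, Fzd2 lies near 0 in both pancreatic panels and at -2.65 and -2.78 in liver, and Daam2 lies past 2 in dorsal pancreas.

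Between the E8.5 libraries the fewest loci were counted. No member was counted at the 4-fold size (0 higher and 0 lower, beside 0.00808% and 0.0404% of all loci). At the 2-fold size Celsr2 was lower in medial foregut, as 1 member beside 0.469% of all loci, with 0 higher, beside 0.275%. Its level was 4.48 FPKM in medial foregut and 10.9 in foregut, a difference of -1.12. Celsr1 at -0.66 and Vangl2 at -0.51 were lower in medial foregut too, and Wnt11 at 0.93, Wnt5a at 0.68 and Prickle1 at 0.45 were higher. All 7 neural tube markers found were lower in medial foregut, with a summed level of 58.7 FPKM in medial foregut and 137.6 in foregut, and all 10 cardiomyocyte markers were higher. Their part in the differences of the members was not tested.

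Within the Frizzled family, Fzd2 made up 18.9% of the summed level in ventral pancreas and 17.6% in dorsal pancreas, against 4.71% in liver, 20.0% in medial foregut and 20.7% in foregut. Fzd7, a receptor used by both branches, was the most abundant Frizzled in 4 libraries, at 42.6 FPKM in ventral pancreas, 30.7 in liver, 54.1 in medial foregut and 57.6 in foregut. In dorsal pancreas Fzd5 was the highest at 30.2 FPKM, above Fzd7 at 22.3 and Fzd2 at 18.9. The summed Frizzled level was 113.6 FPKM in ventral pancreas, 107.3 in dorsal pancreas and 64.6 in liver. Fzd7 stood at 1.99 times Fzd2 in ventral pancreas, 1.18 times in dorsal pancreas and 10.1 times in liver.

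Of 19 Wnt ligand genes listed, 9 were found. Wnt7b held 45.7% of their summed level in ventral pancreas, Wnt5b 53.0% in dorsal pancreas, and Wnt2 29.8% in liver, 47.2% in medial foregut and 43.7% in foregut, each the largest share of its library. The sums include the partial Wnt11 locus. Without it Wnt2 held 39.4% and Wnt5b 27.8% in liver, and the leading gene of each library stayed the one named. Wnt5b held 29.3% in ventral pancreas, 20.98% in liver, 6.09% in medial foregut and 14.1% in foregut. Ror2 was above Ror1 everywhere, at 79.9% of their sum in ventral pancreas, 85.4% in dorsal pancreas, 70.0% in liver, 84.9% in medial foregut and 81.1% in foregut. Ror1 was low in liver too, with 5.07 FPKM in ventral pancreas, 4.03 in dorsal pancreas and 1.74 in liver.

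**Figure D4:**
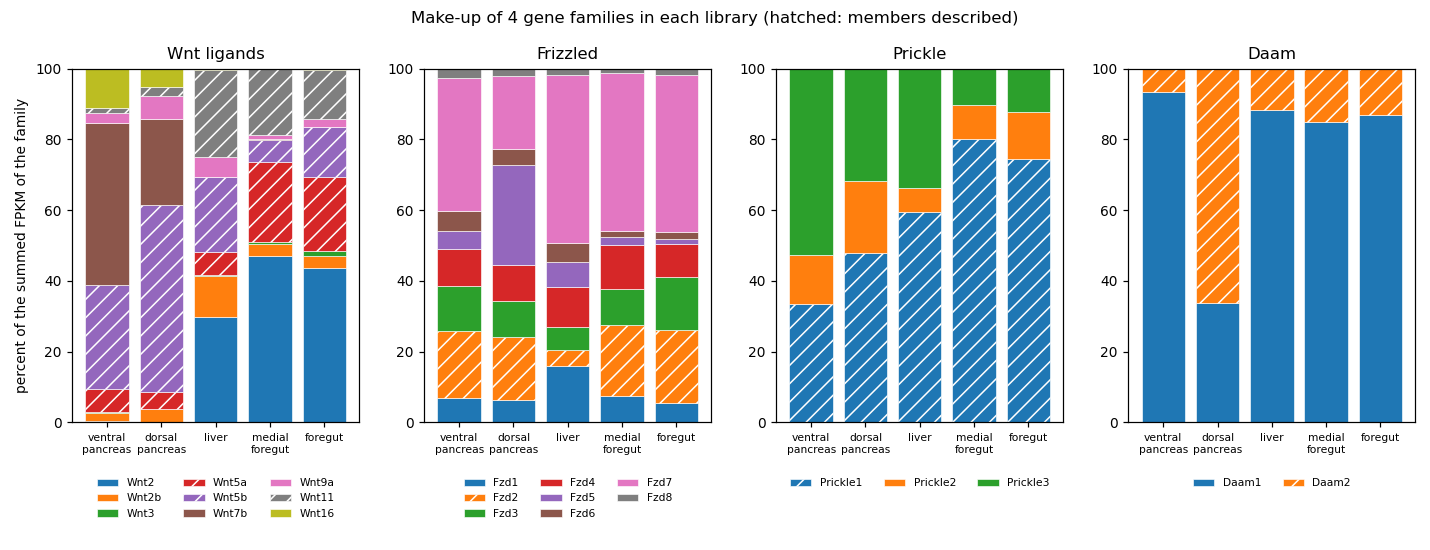
Stacked bars give each gene's percent of the summed FPKM of its family in each library, with members of the 10 hatched. Daam2 takes 66.2% of the Daam sum in dorsal pancreas, Fzd2 takes 4.71% of the Frizzled sum in liver, and Wnt5b takes 53.0% of the Wnt sum in dorsal pancreas.

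Some members resembled each other more than most loci did. Of 9414 loci ranked, Fzd2 was the third nearest profile to Celsr1 (distance 0.48), and Celsr1 the fifth nearest to Fzd2. Ror2 was at rank 20 for Fzd2 (distance 0.70) and at rank 46 for Celsr2 (0.75). Prickle1 was at rank 50 for Wnt5a (0.88) and at rank 62 for Wnt11 (1.04). In the other direction, Fzd2 was at rank 95 and Celsr2 at rank 131 for Ror2. For Prickle1, Wnt5a was at rank 87 and Wnt11 at rank 147. Other members lay far apart, with Wnt5b at rank 8015 and Daam2 at rank 8858 for Wnt5a, and Celsr1 at rank 2907 for Vangl2. The 3 loci nearest to Fzd2 were Igsf11, the laminin gene Lama1 and the integrin gene Itga6. Those nearest to Ror2 were Pxdn, Uchl1 and Satb1, and those nearest to Celsr2 were Fndc5, Rhpn1 and Plch1. The nearest to Celsr1 were Ctgf, Itga6 and Fzd2 itself. Those nearest to Vangl2 were Arhgef26, Nuak2 and Rnf219, and those nearest to Wnt5b were Cldn10, Zdbf2 and Fbxl16. Of these, the loci of Arhgef26, Cldn10 and Zdbf2 cover under 30% of their annotated spans. A profile here has only 5 points, from libraries that all genes share.

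A wider list of the branch held 67 genes, and 57 were found, the 10 included. By the 4-fold count 1 of the other 47 was higher in both pancreatic libraries and 0 were lower, beside 1.51% and 1.04% of all loci. By the 2-fold count 4 were higher and 0 lower, beside 5.36% and 3.11%, so these counts lie near those over all loci. Their median difference was 0.24 for ventral and 0.48 for dorsal pancreas, beside 0.17 and 0.16 over all named loci, and 31 of 47 were above 0 against both, as were 6552 of 12375 named loci.

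Genes higher in both pancreatic libraries were also counted by role, with the 10 members included. The 4-fold and 2-fold counts were 2 and 3 of 10 receptors and co-receptors, 2 and 2 of 14 core polarity genes, and 1 and 1 of 22 effectors. They were 0 and 1 of 3 ligands, 0 and 2 of 5 Fat and Dachsous genes, and 0 and 0 of 3 ciliary effectors, and 0 were lower in any of these groups. The receptors counted at the 4-fold size were the members Fzd2 and Ror2, and Fzd3 was added at the 2-fold size. The core genes counted were the members Celsr1 and Celsr2, and the ligand was the member Wnt5b. Over all loci the 4-fold share was 1.51% and the 2-fold share 5.36%, so that the count of effectors lies near that of all loci at the 2-fold size. The receptor gene Fzd3 stood at 14.3 FPKM in ventral pancreas, 10.9 in dorsal pancreas and 4.19 in liver. Ptk7, a pseudokinase co-receptor, had 47.5 FPKM in ventral pancreas, 54.3 in dorsal pancreas and 28.5 in liver, and was not counted. Ryk, another Wnt co-receptor, had 39.3 FPKM in ventral pancreas, 37.0 in dorsal pancreas and 42.8 in liver.

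The Dishevelled gene Dvl2, which encodes a hub of both Wnt branches, stood at 22.5 FPKM in ventral pancreas, 25.0 in dorsal pancreas and 15.2 in liver. Scrib, a scaffold of cell polarity, stood at 27.0 in ventral pancreas, 37.2 in dorsal pancreas and 26.4 in liver. Of 14 core genes, members included, 13 were above 0 against liver in both comparisons, as were 6552 of 12375 named loci. Their median was 0.22 for ventral pancreas, near the 0.17 of all loci, and 0.58 for dorsal pancreas, beside 0.16. The exception was Prickle1, with -0.29 for ventral and 0.40 for dorsal pancreas.

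Nfatc4, a calcium-regulated transcription factor, was the 1 other gene of the list past the 4-fold size, at 28.6 FPKM in ventral pancreas, 26.3 in dorsal pancreas and 4.52 in liver. Camk2b, a calcium-dependent kinase gene, was under 5 FPKM in ventral pancreas (4.62) and in liver (0.549). The small GTPase gene Rac1 stood at 136 FPKM in ventral pancreas, 133 in dorsal pancreas and 146 in liver, and Cdc42 at 197 in ventral pancreas, 165 in dorsal pancreas and 182 in liver. The median over 22 effectors was 0.00 for ventral and 0.20 for dorsal pancreas.

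The Fat and Dachsous proteins form a separate polarity system of large cadherins. Fat1 stood at 16.0 FPKM in ventral pancreas, 25.2 in dorsal pancreas and 7.14 in liver, and Fjx1, which encodes a kinase of this system, at 19.0 in ventral pancreas, 15.7 in dorsal pancreas and 7.26 in liver. Dchs1 stood at 8.15 in ventral pancreas, 20.5 in dorsal pancreas and 4.65 in liver. Of the wider list, 3 genes were lower in ventral pancreas than in its dorsal counterpart by the 2-fold count and 0 were higher: Daam2, Dchs1 and Ankrd6, which encodes a partner of Dishevelled (ventral 1.79 FPKM, dorsal 5.94 FPKM). The shares over all loci were 2.47% lower and 3.28% higher.

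Against both E8.5 libraries, 11 of the 57 genes were lower in liver by the 2-fold count and 0 were higher, beside 6.08% and 5.24% of all loci. In ventral pancreas 4 were higher and 5 lower, beside 6.38% and 3.31%, and in dorsal pancreas 7 were higher and 5 lower, beside 4.36% and 2.8%. The median difference in liver was -0.47 from medial foregut and -0.43 from foregut. These counts include the 10 members. Without them, 5 of 47 genes were lower in liver by the 2-fold count and 0 were higher. In ventral pancreas 4 of the 47 were higher and 2 lower, and in dorsal pancreas 5 were higher and 2 lower. The median of the 47 in liver was -0.34 from medial foregut and -0.27 from foregut, beside -0.08 and -0.09 over all named loci.

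**Figure D5:**
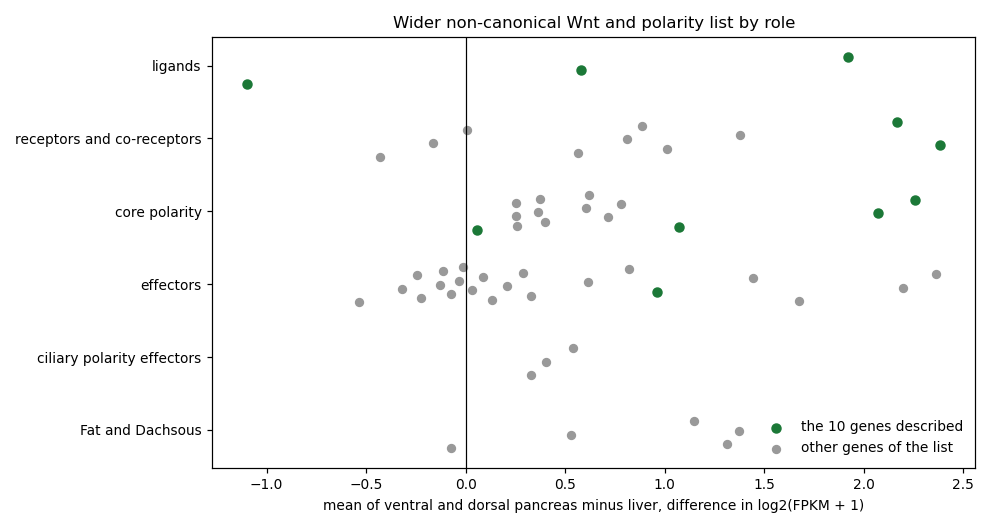
Each point is 1 gene of the wider list, placed by the mean of its ventral and dorsal pancreas differences from liver in log2(FPKM + 1) and sorted by role; vertical scatter within a role has no meaning. Fzd2, Ror2, Celsr1 and Celsr2 lie furthest right among receptors and core polarity genes, and most effectors lie near 0, with Nfatc4 at 2.37 and Camk2b at 2.20 to the right.

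Of 24 canonical Wnt genes found, a list that holds no Wnt ligand, 0 were higher and 1 (Lgr5) was lower in both pancreatic libraries than in liver by the 4-fold count, beside 1.51% and 1.04% of all loci. A count of 1 in 24 is too small to set against these shares. The medians of the list were -0.02 for ventral and 0.18 for dorsal pancreas.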

How the data were processed

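Poly(A) RNA of 5 C57BL/6J mouse embryonic tissues was read as paired ends on an Illumina HiSeq, per the labels' protocols. The authors deposited 1 table of FPKM values per locus, per the file headers. Tools named in the submitters' processing notes are TopHat 1.33 and Cufflinks 1.3.0, and the build is mm9; their settings and any scaling between libraries were not stated. Columns were tied to tissues by the column name in each sample's description.

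Of 14053 loci, 1678 had no name and were left out. Differences in log2(FPKM + 1) were computed in Python 3.11.15 (pandas 2.3.3), and the counting rule was tested on simulated data. Among 32 low loci, 3 shared the most common ratio of medial foregut to foregut (within 0.5%), so read depth could not be derived and values carry no counting interval. With 1 library per tissue there is no replicate and no p-value. Annotation (GENCODE M21 and RefSeq, both GRCm38) served for names, strand, span and promoter sequence only; 10555 loci matched 1 gene by name. The members, lists and comparisons were chosen with earlier results of these data known, so no count is independent evidence. Named genes are the members, their families, up to 4 further genes per role with the largest pancreas-liver difference, the 3 nearest profiles of each member, and marker genes. Ryk, Scrib, Lgr5, Grhl2, Cldn7, Krt8, Krt18, Spint2, Esrp2, Nkx3-2, Sox9, Foxf1a, Postn, Tbx18, Prrx1, Col1a1, Cdh5, Kdr, Tek, Tie1, Flt1, Egfl7, Pax6, Nes, Sox1, Sox2, Rac1, Cdc42, Mocs1 and Fbxl14 were chosen after their values were seen. Alternatives were other pseudocounts, 2 rescalings, no FPKM minimum, the 2-fold size, and loci matched in strand and span (at least 30% covered), for the counts and the family shares. The match set no upper limit on the span. Leaving out 1 library of a pair was added after seeing the data.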

Additional observations from a re-analysis of the deposited data

Results flagged for a closer look

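Daam2 and Wnt5b differed from the E8.5 libraries in opposite directions in different E10.5 tissues, by at least 0.5 against both E8.5 libraries. The difference between tissues was not tested, since each is 1 library. Daam2 was higher in dorsal pancreas by at least 2.58 and lower in ventral pancreas, with -0.67 as the difference nearer to 0. Wnt5b was higher in dorsal pancreas by at least 1.26 and lower in liver, with -0.65 as the difference nearer to 0. Both falls rest on low levels and were not counted at either size. Daam2 had 0.728 FPKM in ventral pancreas, against 2.07 in medial foregut and 1.75 in foregut, all under the 5 FPKM minimum. Wnt5b had 1.83 FPKM in liver, against 3.44 in medial foregut and 5.17 in foregut.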

How the results depend on the processing

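No paired analysis was possible because each group had 1 library. No direction of a counted gene reversed under any alternative run. Counts below are of the 4-fold count, first for the 10 members and then for the wider list where both moved. With a pseudocount of 0.1 FPKM, 5 members and 6 of the list were lower in liver than at E8.5 (3 and 3 as reported), 2 and 2 lower in dorsal pancreas (0 and 0), and 4 of the list lower in ventral pancreas (2). With a pseudocount of 5 FPKM every count of members and list was 0, and over all loci higher in both pancreatic libraries than in liver were 36 (187 as reported) and lower 56 (129). With libraries rescaled to a sum of 1000000, 5 members and 7 of the list were lower in liver than at E8.5, 2 and 2 lower in dorsal pancreas, and 2 of the list lower in ventral than in dorsal pancreas (1). Median-ratio rescaling gave 2 members and 3 of the list higher in both pancreatic libraries than in liver (4 and 5), and 1 and 1 lower in dorsal pancreas than at E8.5. At the 2-fold size the list had 9 higher in both pancreatic libraries, 3 lower in ventral than in dorsal pancreas, 4 higher and 5 lower in ventral pancreas than at E8.5, 7 higher and 5 lower in dorsal pancreas and 11 lower in liver. The members had 2 higher and 3 lower in dorsal pancreas and 6 lower in liver, and members and list had 1 each lower in medial foregut than in foregut. Loci matched in strand and span left 1 member and 1 of the list lower in ventral pancreas than at E8.5, since Wnt11 drops out, and moved 11 family shares and left 34 about where they were. Against medial foregut alone, 2 members were lower in dorsal pancreas, and the list had 2 higher and 3 lower in dorsal pancreas, 5 lower in ventral pancreas and 6 lower in liver. Against foregut alone, 5 members and 5 of the list were lower in liver. Dorsal pancreas alone against liver gave 8 of the list higher (5). By construction the 2-fold size admits more genes, a larger pseudocount shrinks every difference and a smaller one widens it. Rescaling to a sum of 1000000 raised every level, while the pseudocount and the minimum stayed fixed. Beyond that, the cause of these shifts was not tested.

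Limits are the single library per tissue, so that no difference has an error, the unknown read depth, and values near the size limits, which move with scaling. Median-ratio size factors on the log2 scale were 0.11 for ventral pancreas, 0.09 for dorsal pancreas, -0.14 for liver, -0.04 for medial foregut and -0.02 for foregut.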
